A study of Mus musculus with 8 samples.

Results

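The genes described here are the tumour necrosis factor (TNF) and TNF receptor superfamilies with the TRAF proteins and the receptor-proximal adaptors and kinases. They were taken by gene name from the protein-coding rows of the deposited count table: every Tnfsf and Tnfrsf gene with a number, Traf1 to Traf7, and 14 relatives that carry other names, namely Tnf, Lta, Ltb, Ltbr, Fas, Fasl, Cd27, Cd40, Cd40lg, Cd70, Tradd, Fadd, Ripk1 and Ripk3. The rule found 52 of the 54532 genes in the table, with 17 ligands, 24 receptors, 7 TRAFs and 4 adaptors or kinases. Of these, 42 had enough reads to be tested and 10 did not.

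TNF family ligands are mostly made as trimers on the cell membrane, and some, TNF among them, are cut free by proteases. The receptors fall into those with a death domain, which recruit TRADD or FADD and can lead to NF-kB signalling or to cell death through RIPK1, RIPK3 and caspases, those that bind TRAF adaptors directly, and decoys that bind ligand without a signalling tail. In neutrophils, TNF is known to prime the oxidative burst, to raise adhesion molecules and, depending on dose and time, to prolong or shorten survival.

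The study compared mRNA of ICAM1high with ICAM1low neutrophils that had infiltrated mouse mammary tumours. Both fractions came from untreated Balb/c mice that carried 2208L tumour cells in the mammary fat pad, were taken from dissociated tumours of 1 cm diameter, and were separated by flow cytometry on ICAM1 (CD54), an adhesion molecule. Each fraction had 4 biological replicates, while the sources used here do not give the age and sex of the mice, the other gates of the sort, or whether each replicate was its own mouse or a pool. The model is therefore 1 transplanted tumour line in 1 host strain, and p-values measure the spread between these samples.

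The libraries held 10328575 to 22751975 counts, and the members took 0.571% to 0.911% of the counts in ICAM1high libraries, against 0.469% to 0.594% in ICAM1low libraries. Values are CPM, read counts scaled to a common library size after TMM scaling. In CPM the members summed to 4265 to 7732 in ICAM1high and 5423 to 8434 in ICAM1low, so on this scale the fractions overlapped. Fold changes are ICAM1high over ICAM1low. They were tested with edgeR's quasi-likelihood test over 14051 genes, with a Benjamini-Hochberg adjusted p under 0.05 as the threshold. The sorted marker Icam1 averaged 1459 ± 202 CPM in ICAM1high and 848 ± 214 CPM in ICAM1low (SD, n = 4 each; log2 fold change 0.78, SE 0.20, adjusted p = 0.0105). With replicates 1 and 2 alone the Icam1 estimate was 0.52 and did not pass (adjusted p = 0.258). With replicates 3 and 4 alone it was 0.99 (adjusted p = 0.0480). All 10 neutrophil markers were detected in every library and all 10 fell in ICAM1high; their summed level was 8434 to 11792 CPM in ICAM1high and 38254 to 77466 CPM in ICAM1low. Of 12 macrophage and monocyte markers 10 rose and 0 fell, with a summed level of 4095 to 7227 CPM in ICAM1high and 885 to 1372 CPM in ICAM1low, and none of the 12 was at 0 in every library. Of markers of other tissue cells, 2 of 5 tested for fibroblasts and 1 of 5 for endothelium rose, while 3 of 5 tested for epithelium and tumour fell. Of 7 mast cell, basophil and eosinophil markers only 1, Siglecf, had enough reads to be tested, and it rose. These markers moved with the sort in the same libraries as the members below, and their part in the results was not tested. In sorted bulk RNA, fewer cells of a type and less RNA per cell cannot be told apart.

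Of the 42 members tested, 12 rose in ICAM1high (28.6%), 9 fell (21.4%) and 21 did not pass. Among all 14051 genes 22.6% rose and 19.6% fell, so the members' shares lie near the background. Their median log2 fold change was -0.13, against 0.08 over all genes. The receptors divided evenly, with 6 higher, 6 lower and 9 not passing. Of the 10 tested ligands 5 rose and 1 fell, and of the 7 TRAFs 0 rose and 1 fell. CPM of the fractions did not overlap for 12 members that were higher in ICAM1high and for 9 that were lower, against 23.4% and 18% of all genes. With a log2 fold change of at least 1 in size as well, 10 members were higher and 8 lower, against 15.1% and 12.1% of all genes. Scaled by library totals alone, the median of all genes moved up by 0.68 on the log2 scale; 19 members then passed as higher (45.2%) and 6 as lower (14.3%), against 48.5% and 5.97% of all genes. Those 6 were Tnfsf14 (-0.90), Fas (-0.79), Tnfrsf1a (-0.65), Tnfrsf1b (-0.40), Tnfrsf26 (-0.65) and Traf4 (-0.70), each with a smaller fall than under TMM. The library numbers form a run for replicates 1 and 2 and another for replicates 3 and 4. The labels give these runs no meaning. With replicates 1 and 2 alone 9 members were higher and 6 lower, against 1708 and 1416 of all genes. With replicates 3 and 4 alone 6 members were higher and 8 lower, against 1658 and 1604 of all genes. In the full fit 3172 of all genes were higher and 2748 lower.

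**Figure D1:**
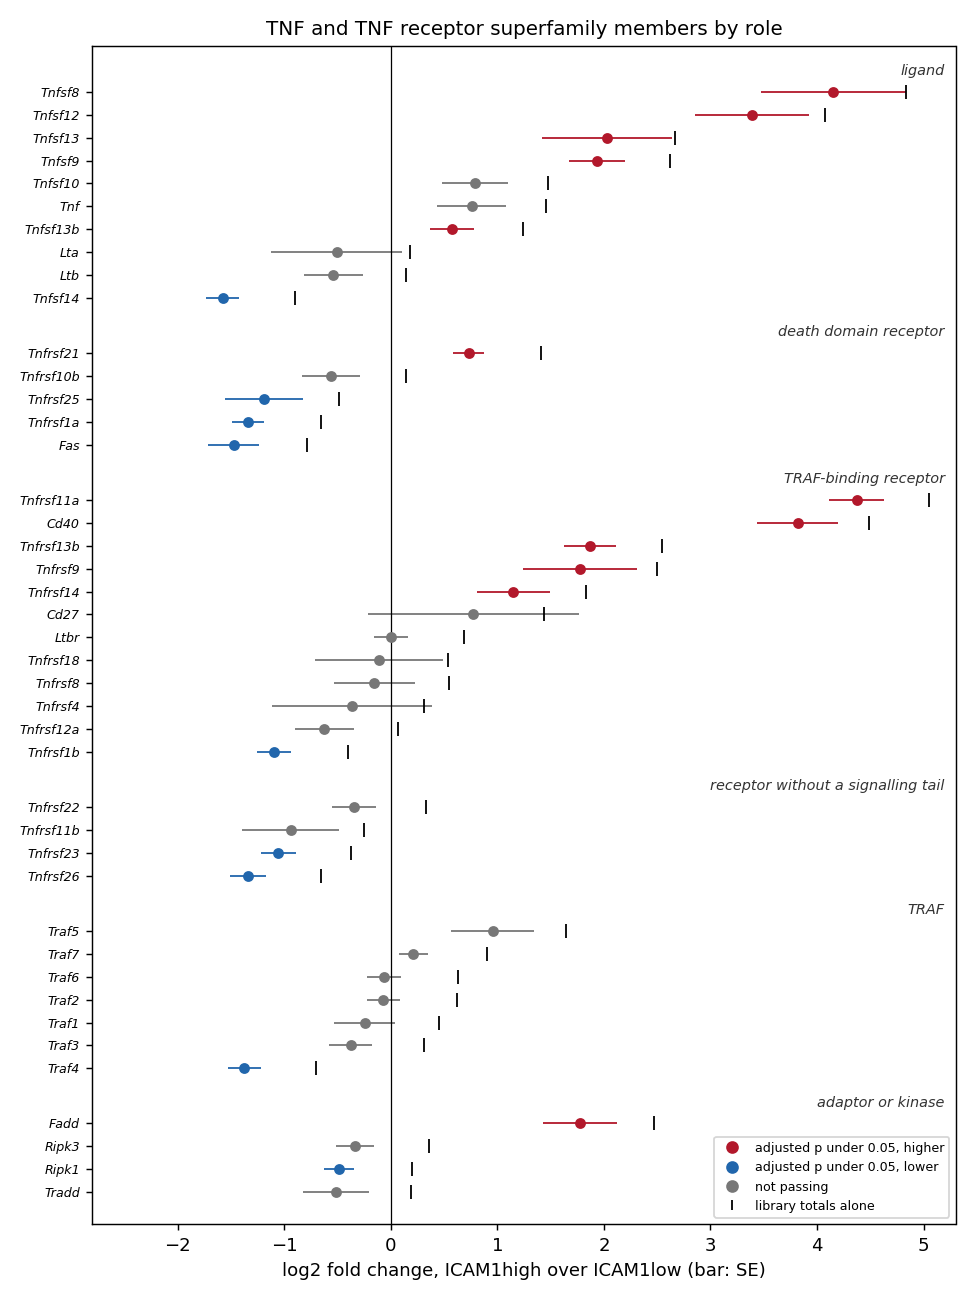
Log2 fold change (ICAM1high over ICAM1low; horizontal axis) of the 42 tested members, grouped by role. Points are estimates with their SE, red for the 12 that were higher past the threshold, blue for the 9 lower and grey for the 21 that did not pass; black ticks mark the estimate with library totals alone, which lies to the right of every point.

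TNF itself was by far the most abundant ligand. Per kilobase of gene length, which allows levels to be set side by side between genes, Tnf reached 1749 ± 724 CPM per kb in ICAM1high and 1032 ± 378 CPM per kb in ICAM1low (SD, n = 4 each). It made up 88.0% ± 1.39 of the summed ligand level in ICAM1high and 75.0% ± 4.71 in ICAM1low (SD, n = 4 each). Tnf (chromosome 17, 35199381 to 35202007, minus strand, mm10) had 4574, 1825, 2557 and 2514 CPM in ICAM1high replicates 1 to 4, against 1703, 979, 1594 and 2487 CPM in ICAM1low replicates 1 to 4. ICAM1high replicate 1 was the highest library, and ICAM1low replicate 4 lay among the ICAM1high libraries, so the fractions overlapped. The difference did not pass (log2 fold change 0.76, SE 0.32, adjusted p = 0.0811). The estimate was 0.40 without ICAM1high replicate 1 (adjusted p = 0.281), and 0.26 with replicates 3 and 4 alone (adjusted p = 0.524). It passed in 3 of 21 alternatives: without ICAM1low replicate 4 (1.01, adjusted p = 0.0240), without both ICAM1high replicate 1 and ICAM1low replicate 4 (0.66, adjusted p = 0.0289) and with library totals alone (1.46, adjusted p = 0.00115).

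Tnf lies between its relatives Lta and Ltb on chromosome 17, and these 3 neighbours had very different levels. Ltb, which forms a membrane heterotrimer with lymphotoxin alpha, was the next most abundant ligand per kilobase in both fractions, with 171 ± 68.3 CPM per kb in ICAM1high and 249 ± 68.1 CPM per kb in ICAM1low (SD, n = 4 each). Its CPM were 411, 186, 200.1 and 241 in ICAM1high, against 309, 309, 363 and 527 in ICAM1low. ICAM1high replicate 1 lay among the ICAM1low libraries and the other ICAM1high libraries lay below all of them. The estimate was -0.54 (SE 0.28, adjusted p = 0.140). It passed without ICAM1high replicate 1 (-0.89, adjusted p = 0.0104) and with ICAM1low replicate 4 left out as well (-0.68, adjusted p = 0.00272). With replicates 3 and 4 alone it also passed (-1.07, adjusted p = 0.0405). With replicates 1 and 2 alone it was -0.054 (adjusted p = 0.929). Under library totals its sign turned (0.15). Lta was near the detection limit in both fractions, at 0.882 ± 0.401 CPM in ICAM1high and 1.25 ± 0.738 CPM in ICAM1low (SD, n = 4 each; log2 fold change -0.51, SE 0.61, adjusted p = 0.537), and its estimate also turned under library totals (0.18).

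Of the 10 tested ligands 5 rose, against 22.6% of all genes. Tnfsf8 (CD30 ligand), a membrane ligand of activated leukocytes, had 89, 118, 109 and 58 counts in ICAM1high replicates 1 to 4, against 5, 1, 10 and 0 counts in ICAM1low replicates 1 to 4. Every ICAM1high library lay above every ICAM1low library (log2 fold change 4.15, SE 0.68, adjusted p = 0.000909), and the size of this fold change rests on very few ICAM1low reads. Tnfsf9 (CD137 ligand), a co-stimulatory ligand of antigen-presenting cells, had 35.4, 25.4, 17.9 and 27.7 CPM in ICAM1high, against 5.28, 7.46, 5.58 and 9.42 CPM in ICAM1low. The fractions did not overlap, and the mean was 3.83 times that of ICAM1low (log2 fold change 1.94, SE 0.27, adjusted p = 0.000335).

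Tnfsf12 (TWEAK), which acts on tissue cells through its receptor Tnfrsf12a, had 31.2, 12.4, 12.0 and 8.85 CPM in ICAM1high, against 0.440, 1.28, 1.73 and 2.62 CPM in ICAM1low. ICAM1high replicate 1 stood well above the other 3 of its fraction, and even the lowest ICAM1high library exceeded every ICAM1low library (log2 fold change 3.39, SE 0.53, adjusted p = 0.000717). Its neighbour Tnfsf13 (APRIL), a B cell and plasma cell survival factor, had 1.97, 1.28, 2.61 and 2.14 CPM in ICAM1high, against 0.367, 0.917, 0.575 and 0.0624 CPM in ICAM1low. These fractions did not overlap either (log2 fold change 2.03, SE 0.61, adjusted p = 0.0220); without ICAM1high replicate 3 or 4 the estimate was 1.86 or 1.99 and did not pass (adjusted p = 0.0714 and 0.0515). On chromosome 11 these genes share exons with a read-through transcript, Tnfsfm13, on the same strand, over 731 exon bases of Tnfsf12 and 983 of Tnfsf13. Tnfsfm13 had 26, 25, 25 and 16 counts in ICAM1high and 5, 0, 0 and 0 in ICAM1low, and an antisense gene, Tnfsf13os, covers 221 exon bases of Tnfsf13 with 128 counts over all libraries, 67% of the number counted for Tnfsf13. Whether counting used strand is not stated in the labels, so reads of Tnfsf13 and its partners may have been split or shared.

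Tnfsf13b (BAFF), the main B cell survival factor and a known product of myeloid cells, had 51.5, 27.5, 31.9 and 30.5 CPM in ICAM1high, against 23.1, 23.6, 25.5 and 22.8 CPM in ICAM1low. ICAM1high replicate 1 was the highest library, and the other 3 ICAM1high libraries lay just above the highest ICAM1low one. The rise was small (log2 fold change 0.58, SE 0.21, adjusted p = 0.0449) and did not hold when any library but ICAM1high replicate 2 was left out: the estimate was 0.30 without ICAM1high replicate 1 (adjusted p = 0.119) and 0.56 to 0.63 without each other one that ended the call (adjusted p = 0.0588 to 0.0930). It passed in 4 of 21 alternatives, and not with DESeq2 (adjusted p = 0.0537), limma-voom (adjusted p = 0.0578), RLE or upper-quartile scaling (adjusted p = 0.0663 and 0.0583) or no filter (adjusted p = 0.0556).

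Tnfsf14 (LIGHT) at chromosome 17, 57189492 to 57194177, minus strand, a ligand shared by Ltbr and Tnfrsf14, was the one ligand that fell. It had 48.1, 37.8, 40.9 and 39.3 CPM in ICAM1high, against 132, 112, 145 and 107 CPM in ICAM1low. The fractions were far apart, and the ICAM1low mean was 2.99 times the ICAM1high mean (log2 fold change -1.58, SE 0.16, adjusted p = 4.68e-05). On chromosome 17 Tnfsf14 is a neighbour of Tnfsf9 and Cd70, so 2 ligands of 1 cluster moved in opposite directions, while Cd70 had 1 count in all libraries. Tnfsf10 (TRAIL), a death ligand, had 2.88, 3.96, 3.57 and 5.03 CPM in ICAM1high, against 2.57, 1.90, 2.82 and 1.62 CPM in ICAM1low. Its fractions did not overlap but the estimate did not pass (log2 fold change 0.79, SE 0.31, adjusted p = 0.0612). It passed without ICAM1high replicate 1 (0.87, adjusted p = 0.0491) and with library totals alone (1.47, adjusted p = 0.00340).

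**Figure D2:**
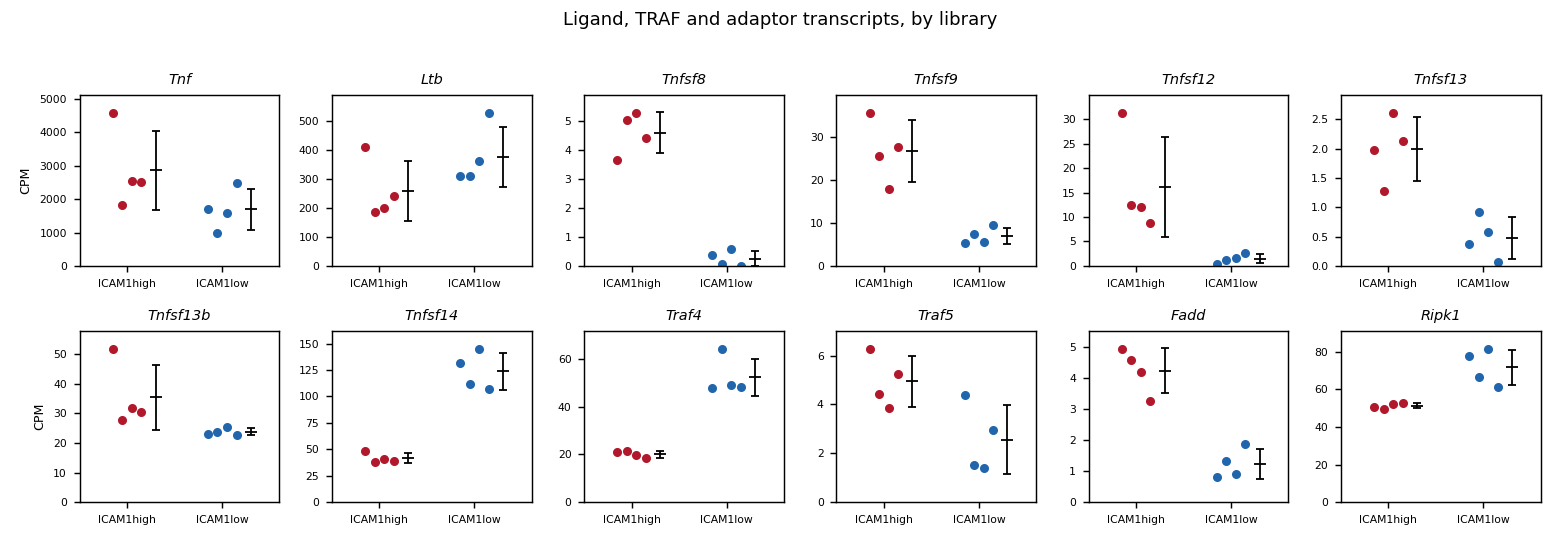
CPM (vertical axes, each from 0) of 8 ligands, 2 TRAFs, Fadd and Ripk1 in the 4 ICAM1high libraries (red, left) and the 4 ICAM1low libraries (blue, right), with the mean and SD of each fraction in black. Tnfsf8, Tnfsf9 and Tnfsf12 are higher in every ICAM1high library, Tnfsf14 and Traf4 lower, and Tnf overlaps.

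The remaining 7 ligands were too low to test. Fasl, the death ligand of cytotoxic lymphocytes, had 18, 8, 7 and 3 counts in ICAM1high and 13, 9, 3 and 37 counts in ICAM1low. Tnfsf15 had 0, 16, 7 and 19 counts in ICAM1high and 1, 0, 0 and 0 in ICAM1low, and Tnfsf18 had 2, 10, 3 and 0 counts in ICAM1high and 1, 0, 0 and 0 in ICAM1low. Tnfsf4 had 8 counts in the ICAM1high libraries together, Cd40lg 4, Cd70 1 and Tnfsf11 (RANK ligand) 1, and all of these were at 0 in ICAM1low.

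Among receptors, the TNF receptors themselves led. Per kilobase, Tnfrsf1b ranked first in both fractions, with 311 ± 40.7 CPM per kb in ICAM1high and 666 ± 89.8 CPM per kb in ICAM1low, and Tnfrsf1a came next with 101 ± 11.8 CPM per kb in ICAM1high and 256 ± 25.7 CPM per kb in ICAM1low (SD, n = 4 each). Fas was next in order at 45.2 ± 13.1 CPM per kb in ICAM1high and 126 ± 28.2 CPM per kb in ICAM1low, and then Tnfrsf23 at 38.2 ± 5.26 CPM per kb in ICAM1high and 79.3 ± 11.5 CPM per kb in ICAM1low (SD, n = 4 each). These 4 all fell, and the summed receptor level per kilobase was lower in every ICAM1high library, at 520 to 640.1 CPM per kb in ICAM1high, against 1063 to 1415 CPM per kb in ICAM1low. The share of Tnfrsf1b in that sum was 52.3% ± 4.98 in ICAM1high and 54.0% ± 1.58 in ICAM1low (SD, n = 4 each). The difference was smaller than the SD of ICAM1high, though not than that of ICAM1low.

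**Figure D3:**
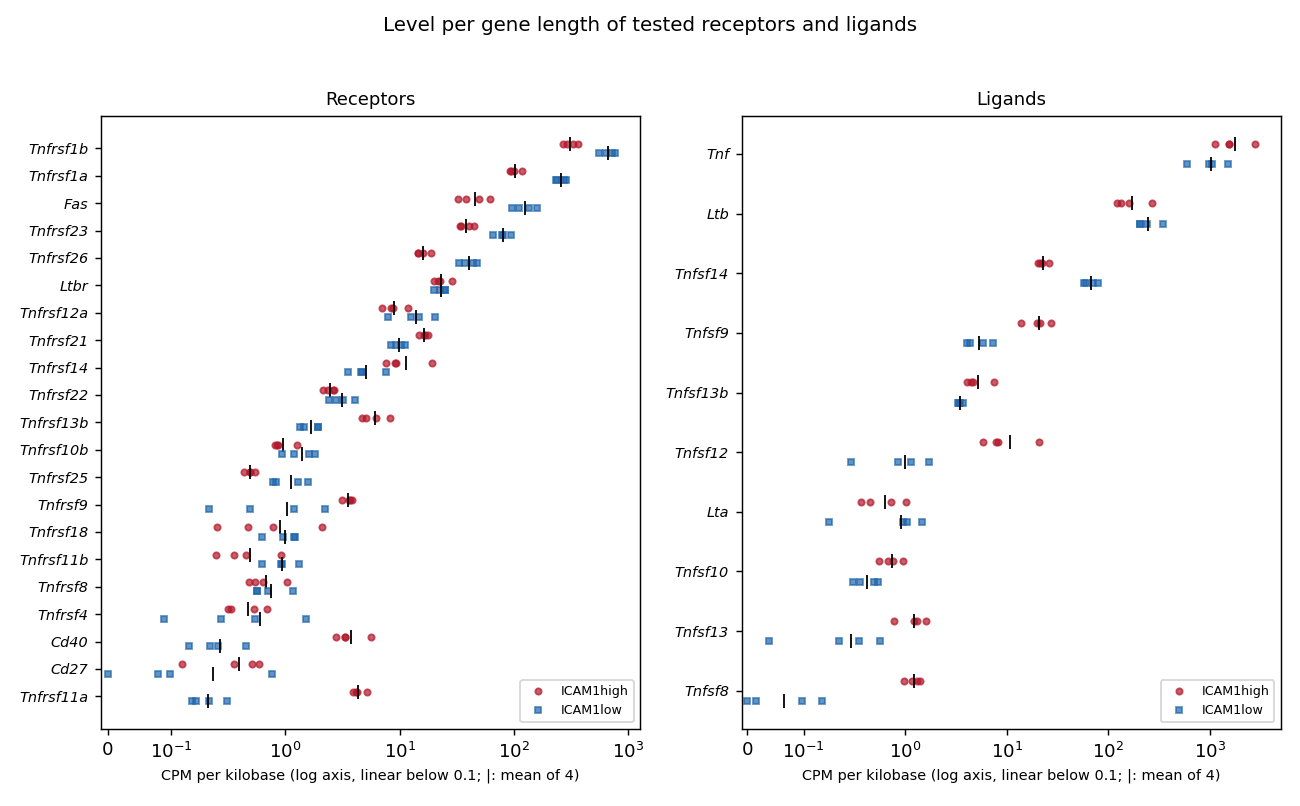
Level per kilobase of gene length (horizontal axis, logarithmic, linear below 0.1) of the 21 tested receptors and 10 tested ligands, ordered by their ICAM1low mean; red circles are ICAM1high libraries, blue squares ICAM1low libraries, and ticks the mean of 4. Tnfrsf1b and Tnf lead their panels in both fractions, and Tnfrsf11a and Cd40 stand far apart between them.

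Of the 5 death domain receptors 3 fell and 1 rose, against 19.6% lower and 22.6% higher over all genes. Tnfrsf1a, the TNF receptor that recruits TRADD and RIPK1, had 306, 243, 258 and 239.9 CPM in ICAM1high, against 615, 600.5, 703 and 737 CPM in ICAM1low. Every ICAM1low library lay well above every ICAM1high library (log2 fold change -1.34, SE 0.15, adjusted p = 9.07e-05). Fas, the receptor that recruits FADD directly, had 111, 58.4, 67.8 and 88.2 CPM in ICAM1high, against 198, 174, 245 and 288 CPM in ICAM1low, again with no overlap (log2 fold change -1.47, SE 0.24, adjusted p = 0.000807).

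Tnfrsf25 (DR3), a receptor known mainly from T cells, had 1.11, 1.23, 1.11 and 0.991 CPM in ICAM1high, against 1.76, 1.90, 2.93 and 3.62 CPM in ICAM1low. It fell (log2 fold change -1.19, SE 0.37, adjusted p = 0.0240) with no overlap, but at a low level, and the call was lost without ICAM1high replicate 2, 3 or 4 (estimates -1.27, -1.21 and -1.16) and without ICAM1low replicate 3 or 4 (-1.12 and -0.98), with adjusted p from 0.0515 to 0.0619. With library totals alone it was -0.48 (adjusted p = 0.287). The 9 T and NK cell markers summed to 23.0 to 33.7 CPM in ICAM1high and 13.8 to 22.0 CPM in ICAM1low; 2 could be tested, of which Cd4 rose (3.84) and Cd3d fell (-1.27), and their part in the Tnfrsf25 result was not tested. Tnfrsf21 (DR6) was the death domain receptor that rose, with 60.0, 72.2, 67.9 and 67.2 CPM in ICAM1high, against 42.5, 45.7, 38.2 and 34.8 CPM in ICAM1low. Its libraries were tightly grouped in each fraction and did not overlap (log2 fold change 0.73, SE 0.14, adjusted p = 0.00263). Tnfrsf10b (DR5), the receptor for TRAIL, averaged 5.16 ± 1.19 CPM in ICAM1high and 7.61 ± 2.19 CPM in ICAM1low (SD, n = 4 each) and did not pass (log2 fold change -0.56, SE 0.27, adjusted p = 0.119); its sign turned under library totals (0.14).

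Of the 12 tested TRAF-binding receptors 5 rose and 1 fell, against 22.6% higher and 19.6% lower over all genes. The 1 that fell was the most abundant. Tnfrsf1b, the TNF receptor that lacks a death domain and binds TRAF2, had 1116, 1016, 1253 and 1371 CPM in ICAM1high, against 2425, 2119, 2728 and 2896 CPM in ICAM1low. The fractions did not overlap, and ICAM1low held 2.14 times the mean of ICAM1high (log2 fold change -1.10, SE 0.16, adjusted p = 0.000524). Tnfrsf11a (RANK) at chromosome 1, 105780718 to 105847981, plus strand, best known from osteoclast precursors and dendritic cells, showed the largest fold change of the 42 members. It had 23.2, 24.8, 30.7 and 25.2 CPM in ICAM1high, against 1.83, 1.28, 0.920 and 0.998 CPM in ICAM1low. Every ICAM1high library lay far above every ICAM1low library (log2 fold change 4.37, SE 0.26, adjusted p = 2.63e-06), and per kilobase the gene stood 11th among the receptors in ICAM1high and 21st in ICAM1low.

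Cd40, a co-stimulatory receptor of B cells, dendritic cells and macrophages, had 18.9, 11.4, 11.2 and 9.53 CPM in ICAM1high, against 1.54, 0.489, 0.748 and 0.874 CPM in ICAM1low. ICAM1high replicate 1 was highest, and every ICAM1high library exceeded every ICAM1low library (log2 fold change 3.82, SE 0.38, adjusted p = 4.61e-05). Tnfrsf13b (TACI), a receptor for BAFF and APRIL, had 23.5, 17.6, 13.4 and 14.5 CPM in ICAM1high, against 4.11, 5.44, 3.80 and 5.49 CPM in ICAM1low, also without overlap (log2 fold change 1.87, SE 0.24, adjusted p = 0.000252). The 6 B and plasma cell markers summed to 4.26 to 27.1 CPM in ICAM1high and 1.35 to 6.68 CPM in ICAM1low; 2 of them could be tested, of which Cd79b rose (log2 fold change 4.12). Their part in these receptor results was not tested. The 7 dendritic cell markers summed to 7.39 to 14.9 CPM in ICAM1high and 4.40 to 9.90 CPM in ICAM1low, and 0 of the 4 that could be tested passed.

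Tnfrsf9 (CD137), the receptor of Tnfsf9, had 10.4, 9.79, 8.45 and 10.1 CPM in ICAM1high, against 0.587, 3.24, 1.32 and 6.05 CPM in ICAM1low. The ICAM1low libraries were widely spread, and even so all lay below ICAM1high (log2 fold change 1.78, SE 0.54, adjusted p = 0.0217); without ICAM1high replicate 2 or ICAM1low replicate 3 the estimate was 1.75 or 1.54 (adjusted p = 0.0542 and 0.0605). Tnfrsf14 (HVEM), a receptor for LIGHT that also binds BTLA, had 27.8, 10.9, 13.0 and 13.4 CPM in ICAM1high, against 6.53, 6.79, 5.12 and 10.9 CPM in ICAM1low. ICAM1high replicate 1 stood apart, and ICAM1low replicate 4 was slightly above ICAM1high replicate 2, so the fractions overlapped although the estimate passed (log2 fold change 1.15, SE 0.34, adjusted p = 0.0201). Without ICAM1high replicate 1 it was 0.72 (adjusted p = 0.0604), and without ICAM1low replicate 2 or 3 1.11 or 1.01 (adjusted p = 0.0541 and 0.0607).

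Another 6 TRAF-binding receptors were tested and did not pass. Ltbr, the lymphotoxin beta receptor, averaged 54.4 ± 9.07 CPM in ICAM1high and 54.2 ± 5.84 CPM in ICAM1low (SD, n = 4 each; log2 fold change 0.0039, SE 0.16, adjusted p = 0.987), and under library totals it passed as higher (0.69, adjusted p = 0.00372). Tnfrsf12a (Fn14), the TWEAK receptor, had an estimate of -0.62 (adjusted p = 0.0937), which passed without ICAM1high replicate 1 (-0.82, adjusted p = 0.0484) and without ICAM1low replicate 1 (-0.81, adjusted p = 0.0196) and turned under library totals (0.070). Cd27, a lymphocyte co-stimulatory receptor, averaged 0.918 ± 0.479 CPM in ICAM1high and 0.544 ± 0.818 CPM in ICAM1low (SD, n = 4 each); its estimate of 0.77 (adjusted p = 0.562) became 2.65 without ICAM1low replicate 1 (adjusted p = 0.0473). The T cell co-stimulatory receptors Tnfrsf4 (OX40), Tnfrsf8 (CD30) and Tnfrsf18 (GITR) had estimates of -0.36, -0.15 and -0.11 (adjusted p = 0.725, 0.768 and 0.898), and all 3 turned to positive under library totals. Tnfrsf13c (BAFF receptor) had 23, 1, 0 and 3 counts in ICAM1high and 3, 0, 0 and 0 in ICAM1low, Tnfrsf17 (BCMA) had 1 count in all, and Tnfrsf19 had 7, 0, 1 and 5 counts in ICAM1high and 10, 0, 1 and 3 in ICAM1low; these 3 were not tested.

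**Figure D4:**
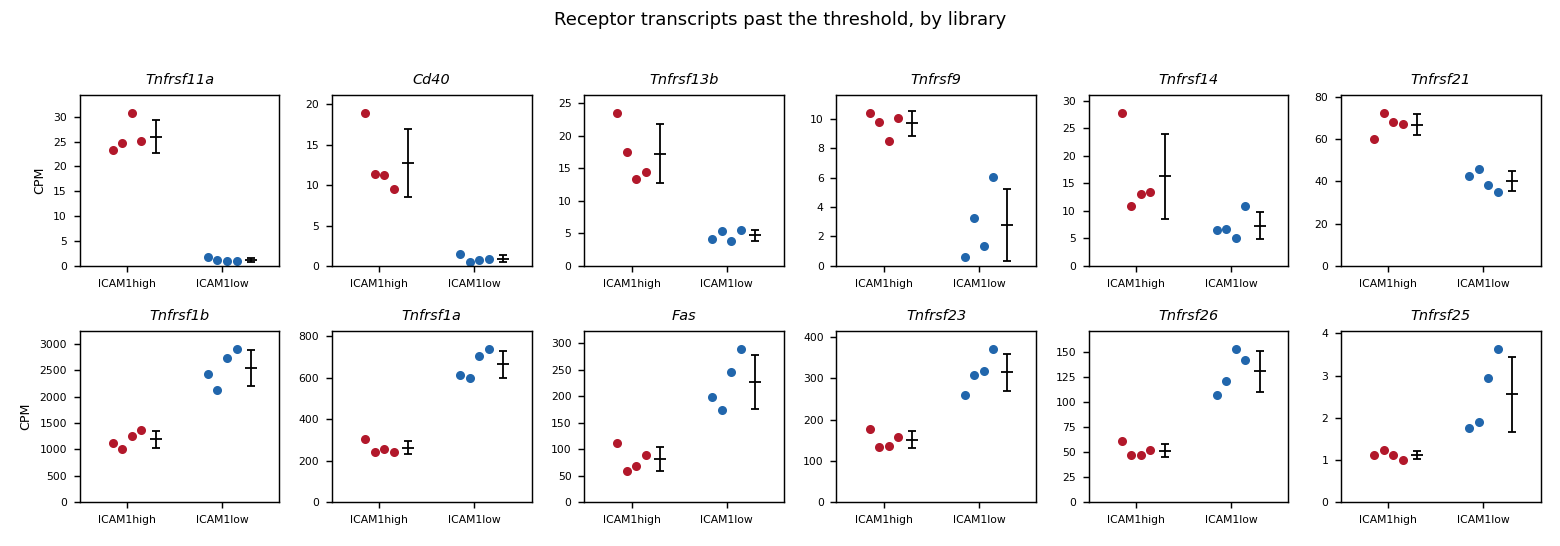
CPM (vertical axes, each from 0) of the 12 receptors past the threshold in the 4 ICAM1high libraries (red, left) and the 4 ICAM1low libraries (blue, right), with the mean and SD of each fraction in black. The upper row holds the 6 that were higher in ICAM1high and the lower row the 6 that were lower; Tnfrsf14 is the one with overlapping fractions.

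Of the 4 receptors without a signalling tail 2 fell and 0 rose, against 19.6% lower and 22.6% higher over all genes. Tnfrsf23, a decoy receptor for TRAIL known in the mouse, had 177, 134, 135 and 159 CPM in ICAM1high, against 259, 309, 319 and 370.3 CPM in ICAM1low. There was no overlap (log2 fold change -1.06, SE 0.16, adjusted p = 0.000663), and with library totals alone the estimate was -0.37 (adjusted p = 0.0542). Tnfrsf26, its neighbour on chromosome 7, had 60.5, 46.7, 46.6 and 51.7 CPM in ICAM1high, against 106, 120.3, 152 and 142 CPM in ICAM1low, also without overlap (log2 fold change -1.34, SE 0.17, adjusted p = 0.000176). Tnfrsf22, the other decoy of that cluster, averaged 10.3 ± 1.09 CPM in ICAM1high and 13.1 ± 3.00 CPM in ICAM1low (SD, n = 4 each; log2 fold change -0.35, SE 0.21, adjusted p = 0.206), and its sign turned under library totals (0.33); without both ICAM1high replicate 1 and ICAM1low replicate 4 it passed (-0.54, adjusted p = 0.0387). The 3 genes are related in sequence, so reads of one may have been counted for another. Tnfrsf11b (osteoprotegerin), the soluble decoy for RANK ligand, did not pass (log2 fold change -0.94, SE 0.45, adjusted p = 0.121), and passed without ICAM1high replicate 3 (-1.44, adjusted p = 0.0354).

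Promoter sequences are shown for 4 members: Tnfrsf11a, the receptor with the largest fold change, Tnfrsf9, a receptor that rose and holds NF-kB matches, Tnfrsf1b, the most abundant receptor, and Tnfsf14, the ligand that fell. Each is the 250 bases before a RefSeq gene start (GRCm38.p6), printed in the direction of transcription with motif matches in capitals. The windows are chr1:105780473-105780722 on the plus strand for Tnfrsf11a, chr4:150927749-150927998 on the plus strand for Tnfrsf9, whose table entry lists 2 starts, chr4:145246871-145247120 on the minus strand for Tnfrsf1b and chr17:57194182-57194431 on the minus strand for Tnfsf14. For Tnfrsf9 the window with the most motif matches was printed. It lies inside the deposited gene, which spans 150914562 to 150946102.
Tnfrsf11a: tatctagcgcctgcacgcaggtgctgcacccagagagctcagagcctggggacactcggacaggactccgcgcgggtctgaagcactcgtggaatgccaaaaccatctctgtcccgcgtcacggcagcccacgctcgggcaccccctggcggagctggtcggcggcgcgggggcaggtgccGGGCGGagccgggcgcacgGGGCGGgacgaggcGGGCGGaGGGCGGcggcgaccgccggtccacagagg
Tnfrsf9: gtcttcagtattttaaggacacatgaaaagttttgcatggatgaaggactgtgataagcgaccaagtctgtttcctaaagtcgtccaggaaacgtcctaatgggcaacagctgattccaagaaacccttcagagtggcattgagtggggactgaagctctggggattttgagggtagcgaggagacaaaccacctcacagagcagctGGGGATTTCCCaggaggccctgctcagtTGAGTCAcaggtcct
Tnfrsf1b: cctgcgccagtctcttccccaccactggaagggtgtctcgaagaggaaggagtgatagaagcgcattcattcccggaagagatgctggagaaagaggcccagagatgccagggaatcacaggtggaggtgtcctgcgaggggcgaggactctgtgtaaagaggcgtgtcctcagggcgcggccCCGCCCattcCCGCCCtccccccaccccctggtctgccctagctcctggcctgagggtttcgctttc
Tnfsf14: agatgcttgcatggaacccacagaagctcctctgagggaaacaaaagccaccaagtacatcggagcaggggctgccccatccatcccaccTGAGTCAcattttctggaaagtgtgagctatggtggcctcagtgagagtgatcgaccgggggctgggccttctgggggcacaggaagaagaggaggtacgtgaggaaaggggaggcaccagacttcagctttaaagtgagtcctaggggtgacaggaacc
Both strands were searched for the SP1 GC box GGGCGG, the AP-1 site TGANTCA, the PU.1 site GAGGAAGT and the NF-kB consensus. The Tnfrsf11a window held 4 GC boxes and the Tnfrsf1b window 2, both printed as CCGCCC because they lie on the opposite strand. The Tnfrsf9 window held 2 NF-kB matches that overlap each other and 1 AP-1 match, and the Tnfsf14 window held 1 AP-1 match. Windows of the same 250 bases were found for 41 of the 52 members; where a gene has several listed starts, a match before any of them was counted, so the GC box counted for Tnfrsf9 lies before its other start. The NF-kB consensus was in 5 of these 41 (12.2%), namely Ltb, Tnfrsf25, Tnfrsf8, Tnfrsf9 and Traf3, against 9.08% of 17492 protein-coding genes. AP-1 was in 6 members (14.6%, against 7.19% of genes): Fas, Tnfrsf8, Tnfrsf9, Tnfsf13, Tnfsf13b and Tnfsf14. PU.1 was in 2 members (4.88%, against 2.57%) and the GC box in 22 (53.7%, against 45.8%). AP-1 matches were found in members that rose, such as Tnfrsf9, and in members that fell, such as Tnfsf14 and Fas.

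Of the 7 TRAF adaptors, which link the receptors to ubiquitin ligases and kinases, 1 passed, against 42.1% of all genes in either direction. Traf4, a family member known from epithelial cells as well as leukocytes, fell, with 21.0, 21.5, 19.6 and 18.4 CPM in ICAM1high, against 47.9, 64.0, 49.0 and 48.3 CPM in ICAM1low. Within each fraction the libraries were close, except ICAM1low replicate 2, which was higher, and the fractions did not overlap (log2 fold change -1.38, SE 0.15, adjusted p = 9.93e-05). The summed level of 6 epithelial and tumour markers was 111 to 163 CPM in ICAM1high and 257 to 459 CPM in ICAM1low, with 3 of the 5 tested lower; its part in the Traf4 result was not tested. Traf1, Traf2, Traf3 and Traf6 had estimates of -0.25, -0.069, -0.38 and -0.064 (adjusted p = 0.526, 0.754, 0.153 and 0.772), all of which turned positive under library totals, where Traf2 (0.62) and Traf6 (0.63) passed. Traf7 had 0.21 (adjusted p = 0.219) and passed under library totals (0.90). Traf5 averaged 4.95 ± 1.04 CPM in ICAM1high and 2.56 ± 1.41 CPM in ICAM1low (SD, n = 4 each; log2 fold change 0.96, SE 0.39, adjusted p = 0.0696), and passed without ICAM1low replicate 1 (1.35, adjusted p = 0.0157) and under library totals (1.64, adjusted p = 0.00421).

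Of the 4 adaptors and kinases, Fadd rose and Ripk1 fell, against 22.6% higher and 19.6% lower over all genes. Fadd, which joins death receptors to caspase 8, had 4.94, 4.60, 4.20 and 3.28 CPM in ICAM1high, against 0.807, 1.35, 0.920 and 1.87 CPM in ICAM1low. The fractions did not overlap (log2 fold change 1.78, SE 0.35, adjusted p = 0.00240), at a level of a few CPM. With replicates 3 and 4 alone the Fadd estimate was 1.37 and did not pass (adjusted p = 0.135). Ripk1, the kinase at the branch between survival and death signalling, had 50.7, 49.8, 52.3 and 52.8 CPM in ICAM1high, against 77.6, 66.6, 81.3 and 61.5 CPM in ICAM1low. The ICAM1high libraries were nearly equal and lay below all ICAM1low ones (log2 fold change -0.48, SE 0.14, adjusted p = 0.0189), but the direction turned under library totals (0.20, adjusted p = 0.329), and the call was lost without ICAM1high replicate 2 (-0.49, adjusted p = 0.0519) and without ICAM1low replicate 3 (-0.42, adjusted p = 0.0582). Ripk1 also overlaps Serpinb6a on the opposite strand by 241 exon bases, a gene with 4194 counts over all libraries, 48.1% of the number counted for Ripk1. Tradd, the adaptor of Tnfrsf1a, and Ripk3, the kinase of necroptosis, did not pass (-0.51, adjusted p = 0.201, and -0.34, adjusted p = 0.161), and both turned positive under library totals (0.19 and 0.35).

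Set side by side, 27 known ligand and receptor pairs were drawn from the members, of which 16 had both sides tested. The pairs were chosen after their values were seen, and single genes rose in 22.6% and fell in 19.6% of all genes. In 3 pairs both sides rose, namely Tnfsf9 with Tnfrsf9, Tnfsf13 with Tnfrsf13b and Tnfsf13b with Tnfrsf13b. In 1 pair the ligand fell and the receptor rose, Tnfsf14 with Tnfrsf14, and in the other 12 at least one side did not pass. All 3 pairs with both sides higher held only in the main fit, with robust dispersion and with library totals alone. The pairs of Tnfsf13 and Tnfsf13b share the receptor Tnfrsf13b. With replicates 3 and 4 alone 0 of the 3 were left, and with replicates 1 and 2 alone 1. Dropping ICAM1high replicate 3, ICAM1high replicate 4 or ICAM1low replicate 3 left 1, as did the replicate block. The remaining settings left 2. The pair in opposite directions was lost when ICAM1high replicate 1, ICAM1low replicate 2 or ICAM1low replicate 3 was dropped. The replicate block and replicates 3 and 4 alone lost it too. Tnf did not pass while both its receptors fell. Tnfrsf11a and Cd40, which rose most among the receptors, had ligands with 1 and 4 counts in all libraries together.

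Ratios of 2 members within a library do not depend on the scaling between libraries, and 6 were compared with two-sided exact permutation tests; 4 libraries against 4 allow no p below 0.029. The log2 ratio of Tnfrsf14 over Ltbr, the receptors that share LIGHT, was -0.57, -1.51, -1.12 and -1.26 in ICAM1high, against -2.12, -2.25, -2.82 and -1.71 in ICAM1low. The fractions did not overlap, and the difference was 1.11 (exact permutation p = 0.029, adjusted over the 6 ratios 0.171), which does not pass the adjustment. A ratio that is alone at the smallest possible p cannot pass an adjustment over 6, so the adjusted value cannot decide here. The log2 ratio of Tnfrsf1b over Tnfrsf1a averaged 1.62 ± 0.28 in ICAM1high and 1.37 ± 0.08 in ICAM1low (SD, n = 4 each; difference 0.25, exact permutation p = 0.200, adjusted 0.300), so a difference in the balance of the TNF receptors was not shown. Tnfsf13b over Tnfsf13 averaged 2.08 ± 0.51 in ICAM1high and 4.09 ± 1.65 in ICAM1low (exact permutation p = 0.0571, adjusted 0.171). For Tnfrsf23 over Tnfrsf10b, Ripk3 over Ripk1 and Traf1 over Traf2 the differences were -0.52, 0.14 and -0.19 (exact permutation p = 0.171, 0.514 and 0.571).

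**Figure D5:**
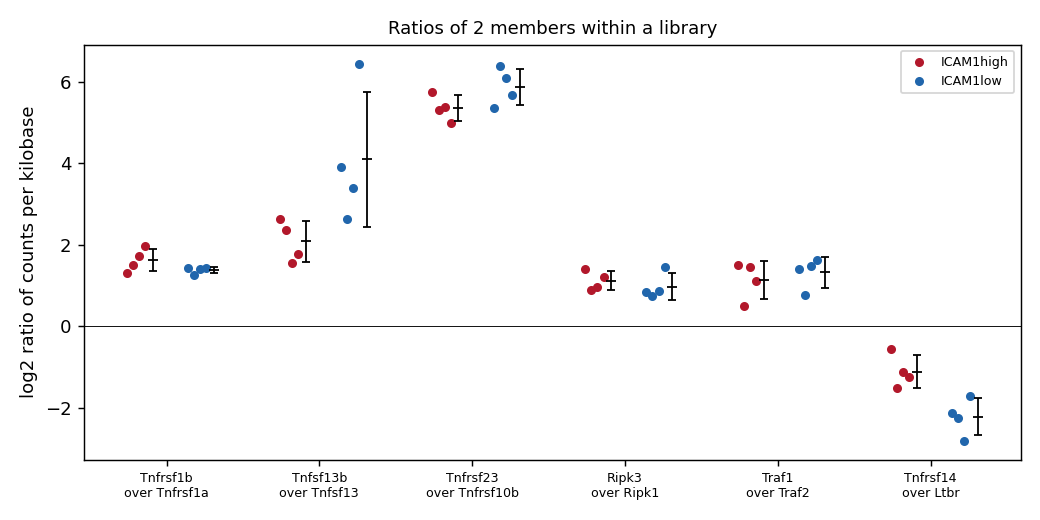
Log2 ratio of counts per kilobase of 2 members within each library (vertical axis) for 6 ratios, ICAM1high in red on the left and ICAM1low in blue on the right of each, with mean and SD in black. Tnfrsf14 over Ltbr is higher in every ICAM1high library, and Tnfrsf1b over Tnfrsf1a overlaps.

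Genes next to the members in the pathway were taken as context. Of 32 genes of TNF receptor signalling, all tested, 2 rose, 12 fell and 18 did not pass, against 22.6% higher and 19.6% lower over all genes. Their median log2 fold change was -0.29, against 0.08 over all genes. Under library totals 13 of the 32 rose (40.6%) and 2 fell (6.25%), against 48.5% and 5.97% of all genes. Birc3, a ubiquitin ligase of the Tnfrsf1a complex, averaged 357 ± 40.4 CPM in ICAM1high and 857 ± 77.3 CPM in ICAM1low (SD, n = 4 each; log2 fold change -1.26, SE 0.15, adjusted p = 0.000124). Mapkapk2, a kinase that stabilizes Tnf mRNA, averaged 1055 ± 109.8 CPM in ICAM1high and 2149 ± 317 CPM in ICAM1low (SD, n = 4 each; log2 fold change -1.03, SE 0.16, adjusted p = 0.000683). Bid, which carries caspase 8 signals to mitochondria, averaged 18.5 ± 2.74 CPM in ICAM1high and 36.0 ± 2.90 CPM in ICAM1low (SD, n = 4 each; log2 fold change -0.96, SE 0.16, adjusted p = 0.000977), and under library totals it missed the threshold (-0.28, adjusted p = 0.153). Ikbke, an NF-kB and interferon kinase, rose, with 245 ± 97.8 CPM in ICAM1high and 74.9 ± 21.5 CPM in ICAM1low (SD, n = 4 each; log2 fold change 1.71, SE 0.31, adjusted p = 0.00160). With replicates 1 and 2 alone Mapkapk2 (-0.93, adjusted p = 0.0544) and Bid (-0.81, adjusted p = 0.0867) did not pass.

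Of the 9 genes that release TNF family ligands from the membrane or steer that release, 8 were tested; 2 rose and 3 fell, against 22.6% higher and 19.6% lower over all genes. Their median log2 fold change was -0.51, against 0.08 over all genes. Rhbdf2 and Rhbdf1, the iRhom partners that bring the TNF-cleaving protease ADAM17 to the surface, both fell: Rhbdf2 averaged 176 ± 24.1 CPM in ICAM1high and 445 ± 72.7 CPM in ICAM1low (SD, n = 4 each; log2 fold change -1.34, SE 0.17, adjusted p = 0.000240), and Rhbdf1 fell as well (log2 fold change -1.20, SE 0.23, adjusted p = 0.00202), though not past the threshold under library totals (-0.54, adjusted p = 0.110). The protease gene Adam17 itself did not pass (-0.49, adjusted p = 0.164). Sppl2b, an intramembrane protease that cuts the TNF stub, rose (log2 fold change 0.89, SE 0.18, adjusted p = 0.00295), as did the sheddase Adam10 (log2 fold change 0.78, SE 0.21, adjusted p = 0.0123). Furin also fell (-0.53). With replicates 1 and 2 alone Adam10 did not pass (0.49, adjusted p = 0.275). With replicates 3 and 4 alone Sppl2b (0.67, adjusted p = 0.126) and Rhbdf1 (-0.89, adjusted p = 0.0965) did not pass.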

How the data were processed

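mRNA was sequenced from 8 libraries, each made from 100 ng of total RNA of sorted neutrophils. The authors deposited a table of raw read counts per gene with gene positions and gene length in bases, an other quantity used here to set levels per kilobase. The submitters' processing notes name HISAT2 and the mm10 build; no source used here gives the counting tool, annotation, strand setting or filters. GENCODE M21, which gave exon overlaps, held 99.8% of the gene IDs.

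In R 4.3.3, genes left by filterByExpr by group were scaled by TMM and tested, unpaired, by quasi-likelihood in edgeR 4.0.16, with Benjamini-Hochberg adjustment over 14051 genes and a threshold of 0.05. The SE was derived from the estimate and its F statistic. Depths of 10328575 to 22751975 counts limit the precision of members with a few CPM. Members that passed with a log2 fold change of at least 1 in size are given per library, and 4 genes of each context list by smallest p among those averaging a log2 CPM of 1 or more. The members and lists were chosen with earlier results of these data known. The ligand and receptor pairs and the genes named beyond this rule were chosen after their values were seen. Some genes of the context lists are counted but not reported singly here. Alternatives were DESeq2 1.42.0 and limma-voom (limma 3.58.1), a block on replicate number, other scalings, filters and dispersion, the library-number run, and libraries left out.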

Additional observations from a re-analysis of the deposited data

Results flagged for a closer look

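Among 4 libraries of a fraction, a library was singled out when its gap to the nearest other made up more of the fraction's range than Dixon's critical value. Of 114 such groups, 8 held one (7.02%), and chance alone gives about 1 in 20. ICAM1high replicate 1 was high for Tnfsf12, at 31.2 CPM against 8.85 to 12.4 CPM in the other ICAM1high libraries (gap over range 0.840), and for Tnfrsf14, at 27.8 CPM against 10.9 to 13.4 CPM (0.851). ICAM1high replicate 4 was high for Tnfrsf10b, at 6.94 CPM against 4.44 to 4.68 CPM (0.903). In ICAM1low, replicate 1 was high for Cd27, at 1.76 CPM against 0 to 0.230 CPM (0.869), replicate 2 for Traf4, at 64.0 CPM against 47.9 to 49.0 CPM (0.935), and replicate 4 for Traf7, at 77.9 CPM against 64.0 to 66.4 CPM (0.831). ICAM1low replicate 3 was high for Sppl2b, at 14.0 CPM against 9.86 to 10.3 CPM (0.901). The log2 ratio of Tnfrsf1b over Tnfrsf1a was low in ICAM1low replicate 2, at 1.26 against 1.40 to 1.42 (0.848). Of the 42 tested members, 27 were highest within ICAM1high in replicate 1, against 3 to 8 in each other library. Within ICAM1low, 21 were highest in replicate 4, against 4 to 12 in each other library. Libraries of a fraction were also compared by chi-square per degree of freedom over gene counts. It was 91.1 to 105 with ICAM1high replicate 1 and 12.6 to 20.8 between the others. For ICAM1low replicate 4 these were 102 to 221 and 24.9 to 61.3. The cause was not tested.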

How the results depend on the processing

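Of the 21 members called, 11 passed in the same direction under all 21 alternatives: Tnfsf9, Tnfsf12, Tnfsf14, Tnfrsf1a, Tnfrsf1b, Tnfrsf11a, Tnfrsf13b, Tnfrsf26, Fas, Cd40 and Traf4. Scaling by library totals turned the most signs. With library totals alone 19 members, 13 signalling genes and 6818 of all genes were higher and 2 signalling genes and 839 of all genes lower, while with TMM 12 members, 2 signalling genes and 3172 of all genes were higher and 12 signalling genes and 2748 of all genes lower. The sign turned for Lta 0.18, Ltb 0.15, Ripk1 0.20, Ripk3 0.35, Tnfrsf10b 0.14, Tnfrsf12a 0.070, Tnfrsf18 0.54, Tnfrsf22 0.33, Tnfrsf4 0.31, Tnfrsf8 0.55, Tradd 0.19, Traf1 0.45, Traf2 0.62, Traf3 0.31 and Traf6 0.63; the shift of all genes by 0.68 is larger than these members' estimates with TMM. With replicates 3 and 4 alone 6 members were higher, 5 signalling genes were lower, and 1658 of all genes were higher and 1604 lower. With replicates 1 and 2 alone 1 signalling gene was higher and 3 lower, 1708 of all genes were higher and 1416 lower, and the sign turned for Cd27 -0.37, Lta 0.30, Tnfrsf18 0.65, Tnfrsf4 0.70, Traf1 0.15 and Traf2 0.15. Both fits hold 2 libraries a fraction. Called members that did not pass with replicates 1 and 2 alone were Tnfrsf21, Tnfrsf23, Tnfrsf25, Tnfsf13, Tnfsf13b and Ripk1. With replicates 3 and 4 alone they were Tnfrsf9, Tnfrsf14, Tnfrsf25, Tnfsf8, Tnfsf13, Tnfsf13b, Fadd and Ripk1.

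The labels number replicates alike but state no pairing; correlations of same-numbered libraries around their group means were -0.57, 0.21, 0.18 and -0.30. With the replicate block 6 signalling genes were lower, 17 members were called, of which 16 were also called without it; Traf5 passed (adjusted p = 0.0466), and Ripk1, Tnfsf13b, Tnfrsf14, Tnfrsf25, Tnfsf13 and the release gene Adam10 did not (adjusted p = 0.0763, 0.114, 0.0517, 0.0921, 0.0682 and 0.0512), which left 1 pair with both sides higher and 0 in opposite directions. With the block Tnfrsf4 was 0.11; Tnfrsf4 was 0.19 with limma-voom. Ltbr, at 0.0039 with TMM, was -0.062 with DESeq2, -0.062 with RLE, -0.017 with upper-quartile scaling, -0.0032 with the stricter filter, -0.0041 with limma-voom, -0.0048 with the block, -0.30 with replicates 3 and 4 alone and -0.11 without ICAM1high replicate 1 and ICAM1low replicate 4. Without those 2, Tnfrsf8 was 0.11 and Traf6 0.018. Leaving out each library in turn, or those 2 together, gave -0.15 to 0.055 for Ltbr, -0.98 to 0.17 for Tnfrsf18, -0.89 to 0.66 for Tnfrsf4, -0.44 to 0.13 for Tnfrsf8, -0.19 to 0.018 for Traf2 and, for single libraries left out, -0.37 to 0.030 for the difference in the log2 ratio of Traf1 over Traf2. The cause of these turns in sign was not tested. Low members rest on few reads, such as Tnfsf13 with 191 counts over all libraries; whether depth bears on the lost calls was not tested.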
